A study of Mus musculus with 10 samples.

Results

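The miR-30 family was taken as the mature arms of 6 annotated hairpins, Mir30a, Mir30b, Mir30c-1, Mir30c-2, Mir30d and Mir30e, of 1174 mouse miRNA hairpins searched. The small RNA libraries came from cells sorted at Day 6 from embryoid bodies in which mouse embryonic stem cells (mESCs) had been induced to form primordial germ cell-like cells (mPGCLCs). Of the 10 libraries, 2 were D6 mPGCLCs of the line E14 (strain 129/Ola, no reporter) and 2 were D6 mPGCLCs of the line BG5 (strain C57BL/6J/DBA/129, Blimp1-GFP reporter). The other 6 were non-PGCLC cells sorted from the embryoid bodies, with 2 each from E14, BG5 and SGET (strain B6CBA/129, Stella-GFP and Esg1-tdTomato reporters). All lines were male, each is a single mESC line with its own strain background, and mPGCLCs of SGET were not analysed here. The labels give the Stella-GFP and Esg1-tdTomato gate for every sample, but only SGET carries those reporters, and the study's methods give antibodies and/or the reporter of each line. For mPGCLCs the study names Ssea1 and Cd61 in E14, Ssea1 and Blimp1-GFP in BG5, and Stella-GFP without Esg1-tdTomato in SGET. Line, strain and sorting markers thus cannot be told apart. The surrounding cells are a mixture, and in a sorted pool fewer cells of a type and less RNA per cell cannot be told apart.

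A miRNA hairpin is cut into a short duplex whose strands, the 5p and the 3p arm, can each be loaded into an Argonaute protein. Bases 2 to 8 of the loaded arm, the seed, choose target mRNAs, so that arms with the same seed share many potential targets. The miR-30 family is broadly expressed in differentiated tissues, and its members lie in pairs on different chromosomes.

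Libraries held 7421061 to 14444567 mapped reads, and 14.9% to 34.3% of them were assigned to miRNA arms. Levels are given as RPM, a read count scaled to the library's total, or, after scaling by the trimmed mean of M values (TMM), as TMM-scaled CPM. The germ and pluripotent cell list of 11 hairpins (miR-290 and miR-302 clusters) summed to 52745 to 224300 RPM in mPGCLCs, to 93560 to 158881 RPM in the non-PGCLC cells of E14 and SGET, and to 8094 to 9216 RPM in those of BG5. The list of 4 mesenchyme hairpins summed to 19.0 to 144 RPM in mPGCLCs and to 13165 and 22031 RPM in the BG5 non-PGCLC replicates, against 425 to 1242 RPM in the non-PGCLC cells of E14 and SGET. The lists for epithelium (5 hairpins, 1114 to 4337 RPM), endothelium (1 hairpin, 12.1 to 132 RPM) and muscle (5 hairpins, 5.97 to 232 RPM) were present in every library. The list of 4 blood hairpins summed to 37.9 and 58.5 RPM in E14 mPGCLCs, 5.52 and 1.94 RPM in E14 non-PGCLC cells and 7.19 to 82.5 RPM in the other 6 libraries, and its Mir451a and Mir144 were at 0 in all 10. The part of these other cell types in the miR-30 values was not tested.

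The mature sequences show why the family is treated as a unit and where its members can be told apart. All miR-30 5p arms in the RefSeq table shared the seed GUAAACA, shown in capitals together with the seeds of the 3p arms (5′ to 3′, GRCm38.p6; Mir30b and Mir30d had no entry).
miR-30a-5p: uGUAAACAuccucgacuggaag
miR-30c-5p: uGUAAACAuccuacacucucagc
miR-30e-5p: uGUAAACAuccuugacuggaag
miR-30a-3p: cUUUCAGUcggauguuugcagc
miR-30e-3p: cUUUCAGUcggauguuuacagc
miR-30c-1-3p: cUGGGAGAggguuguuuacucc
miR-30c-2-3p: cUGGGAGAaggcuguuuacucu

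The miR-30a-5p and miR-30e-5p sequences differed at 1 of 22 bases, position 13 from the 5′ end, and each differed from miR-30c-5p at 5 of 22. On the 3p side, miR-30a and miR-30e also differed at 1 base, position 18, and miR-30c-1 and miR-30c-2 at 3. Mir30c-1 and Mir30c-2 give the same 5p arm, so its reads were counted once as Mir30c-5p. Reads of Mir30b-5p and Mir30c-5p are alike over their first 18 nt and were separated by the bases that follow. The family therefore had 11 arms, 5 from the 5p and 6 from the 3p side.

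Mir30a (chr1:23272269-23272339, plus strand) lay 19361 bp from Mir30c-2 (chr1:23291701-23291784, plus strand) on GRCm38. Mir30c-2 overlapped an exon of the lincRNA Gm27028, and Mir30a overlapped no annotated gene. Mir30c-1 (chr4:120769534-120769622) and Mir30e (chr4:120772606-120772697), both on the minus strand, lay 2983 bp apart in introns of Nfyc, which encodes a subunit of the CCAAT-binding factor NF-Y. Mir30e also overlapped Mir30f, annotated on the opposite strand, and reads were matched to the sense strand. Mir30b (chr15:68337415-68337510) and Mir30d (chr15:68341208-68341289), also on the minus strand, were 3697 bp apart. They overlapped exons of the long non-coding RNA genes Gm26621 and Gm20732, respectively.

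The family was measured deeply, and nearly all of it came from 4 of the 5p arms. It held 583692 reads in the 10 libraries, of which 5p arms made up 96.0% to 98.5% in each library. Mir30d-5p had the highest mean over the 10 libraries at 2200 RPM, followed by Mir30a-5p at 1201, Mir30c-5p at 1171 and Mir30e-5p at 848 RPM. The other 5p arm, Mir30b-5p, had a mean of 58.7 RPM. Mir30d-5p was the first of the family in 9 of 10 libraries and Mir30c-5p in 1, E14 mPGCLC replicate 1. Among all miRNA arms of a library, Mir30d-5p ranked between 15 and 27, Mir30a-5p between 25 and 54, Mir30c-5p between 23 and 70, and Mir30e-5p between 34 and 59.

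Among reads of 18 to 26 nt with GUAAACA at bases 2 to 8, 98.7% to 99.2% belonged to the miR-30 5p arms. The only other arm of the RefSeq table with this seed was Mir384-5p, found in 80 reads of BG5 non-PGCLC replicate 1 and in no other library. Mir6958-5p, which shares the seed of the miR-30c 3p arms, had 0 reads. Nearly all reads with this seed were thus the family's own.

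Summed over its 11 arms, the family reached 5188 and 5860 RPM in E14 mPGCLCs and 3788 and 3109 RPM in E14 non-PGCLC cells. It reached 5144 and 3142 RPM in BG5 mPGCLCs, 9742 and 5670 RPM in BG5 non-PGCLC cells, and 7143 and 7563 RPM in SGET non-PGCLC cells. The direction between cell types was opposite in the lines: both E14 mPGCLC replicates were above the E14 non-PGCLC replicates, and both BG5 mPGCLC replicates were below the BG5 non-PGCLC replicates. From group means of 5524 ± 475 and 3449 ± 480 RPM (SD, n = 2), the log2 ratio of mPGCLC to non-PGCLC was 0.68 in E14. In BG5 the means were 4143 ± 1415 and 7706 ± 2879 RPM, with a log2 ratio of -0.90. Leaving out 1 library gave ratios of 0.54 to 0.83 in E14 and -1.29 to -0.45 in BG5. No test was made on the sum.

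**Figure D1:**
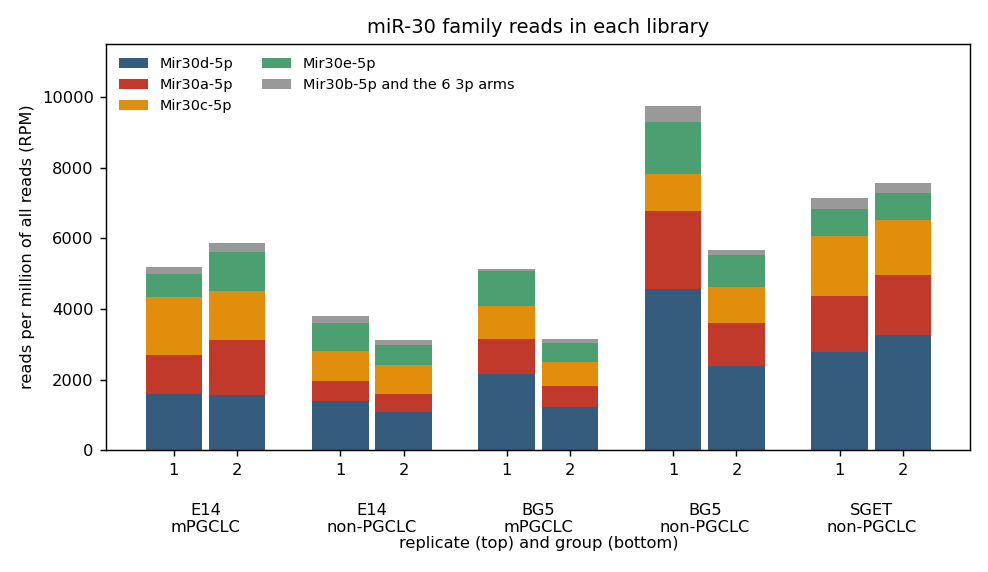
RPM (vertical axis) of the miR-30 family in each library, stacked by arm. BG5 non-PGCLC replicate 1 was the highest bar at 9742 RPM and E14 non-PGCLC replicate 2 the lowest at 3109 RPM, and Mir30d-5p (bottom segment) made up 26.9% to 46.8% of each bar.

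These levels depended on what they were set against. As a share of miRNA reads, the family made up 1.69% ± 0.25 of E14 mPGCLC and 1.70% ± 0.07 of E14 non-PGCLC miRNA reads (SD, n = 2), and the log2 ratio in E14 became -0.01. In BG5 it made up 2.25% ± 0.19 and 2.82% ± 0.26, a log2 ratio of -0.33. After TMM scaling the ratios were 0.49 in E14, with replicates that did not overlap, and -0.19 in BG5, with replicates that overlapped. In RPM, BG5 non-PGCLC overlapped with both SGET non-PGCLC and E14 mPGCLC, and BG5 mPGCLC overlapped with E14 non-PGCLC. On the TMM scale SGET non-PGCLC and E14 mPGCLC were highest and overlapped, and below them the neighbours among the other 3 groups overlapped.

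Mir30a-5p was the family member that passed the test between mPGCLCs and non-PGCLC cells within E14, and the one that passed the test of a difference between the lines. It had 1113 and 1548 RPM in E14 mPGCLCs against 552 and 501 RPM in E14 non-PGCLC cells, so the groups did not overlap. In BG5 it had 982 and 594 RPM in mPGCLCs against 2205 and 1224 RPM in non-PGCLC cells, and here mPGCLCs were the lower group, again without overlap. In SGET non-PGCLC cells it had 1586 and 1710 RPM. The same directions, without overlap, held on the TMM scale and as shares of miRNA reads, where it made up 0.324% and 0.492% against 0.240% and 0.282% in E14 and 0.455% and 0.399% against 0.680% and 0.569% in BG5.

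In the fit of edgeR's quasi-likelihood test over 561 arms, Mir30a-5p rose in E14 mPGCLCs by 1.15 on the log2 scale (SE 0.29, n = 2 against 2, adjusted p = 0.0399 with Benjamini-Hochberg adjustment over all arms). Of all arms tested within E14, 2.85% passed in either direction and 0.535%, or 3 arms, as higher. Within BG5 the log2 change of Mir30a-5p was -0.41 (SE 0.28, edgeR adjusted p = 0.450), where 13.9% of arms passed, and it turned to 0.022 without BG5 non-PGCLC replicate 1. The difference between the lines, BG5 effect minus E14 effect, was -1.55 (SE 0.40, edgeR adjusted p = 0.0226), and 1.78% of arms passed with a lower effect in BG5. The E14 call was lost with total-read scaling (adjusted p = 0.131), with DESeq2 size factors (0.0698), with the compared groups alone (0.110), with exact hairpin matches (0.0529), and without any 1 E14 library or either BG5 mPGCLC library (0.0647 to 0.433). The log2 change itself was 0.96 to 1.34 over all 20 alternatives. The difference between the lines stayed past the threshold under the 10 alternatives that did not leave out a replicate (1 of them without the SGET libraries), with log2 values of -2.46 to -1.51, and was lost without E14 mPGCLC replicate 2, either BG5 mPGCLC replicate, either E14 non-PGCLC replicate or BG5 non-PGCLC replicate 1 (adjusted p = 0.0898 to 0.223, log2 values of -1.63 to -1.10).

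Mir30c-5p, the arm made by both Mir30c hairpins, had 1641 and 1369 RPM in E14 mPGCLCs, 868 and 834 RPM in E14 non-PGCLC cells, 955 and 700 RPM in BG5 mPGCLCs, 1060 and 1024 RPM in BG5 non-PGCLC cells, and 1704 and 1553 RPM in SGET non-PGCLC cells. E14 mPGCLCs and SGET non-PGCLC cells were the high groups, and they overlapped. On the TMM scale it was higher in mPGCLCs of both lines without overlap, with log2 changes of 0.64 (SE 0.29) in E14 and 0.33 (SE 0.29) in BG5. Neither passed (edgeR adjusted p = 0.389 and 0.576). As shares of miRNA reads the groups overlapped in both lines, with 0.478% and 0.435% in E14 mPGCLCs against 0.378% and 0.469% in E14 non-PGCLC cells. In BG5 the direction turned with total-read scaling (log2 change -0.33), where the median of all arms in BG5 moved from -0.04 to -0.73, and in E14 from 0 to 0.12. Averaged over both lines the change was 0.48 (SE 0.20, edgeR adjusted p = 0.149).

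Mir30d-5p, the most abundant arm, had 1593 and 1577 RPM in E14 mPGCLCs, 1396 and 1080 RPM in E14 non-PGCLC cells, 2153 and 1218 RPM in BG5 mPGCLCs, 4558 and 2377 RPM in BG5 non-PGCLC cells, and 2786 and 3264 RPM in SGET non-PGCLC cells. In RPM, mPGCLCs were above non-PGCLC cells in E14 and below them in BG5, without overlap. As a share of miRNA reads it was instead lower in E14 mPGCLCs (0.464% and 0.501%) than in E14 non-PGCLC cells (0.607% and 0.608%). The TMM-scaled log2 changes were 0.17 (SE 0.25) in E14 and -0.33 (SE 0.25) in BG5, and neither passed (edgeR adjusted p = 0.937 and 0.492). Without BG5 non-PGCLC replicate 1 the BG5 value turned to 0.15.

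Mir30e-5p had 630 and 1110 RPM in E14 mPGCLCs, 792 and 552 RPM in E14 non-PGCLC cells, 971 and 534 RPM in BG5 mPGCLCs, 1478 and 892 RPM in BG5 non-PGCLC cells, and 755 and 764 RPM in SGET non-PGCLC cells. All neighbouring groups overlapped in the order of RPM. The log2 changes were 0.19 (SE 0.34) in E14 and 0.04 (SE 0.34) in BG5 and did not pass in the edgeR fit. The value in BG5 turned to -0.66 with total-read scaling.

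**Figure D2:**
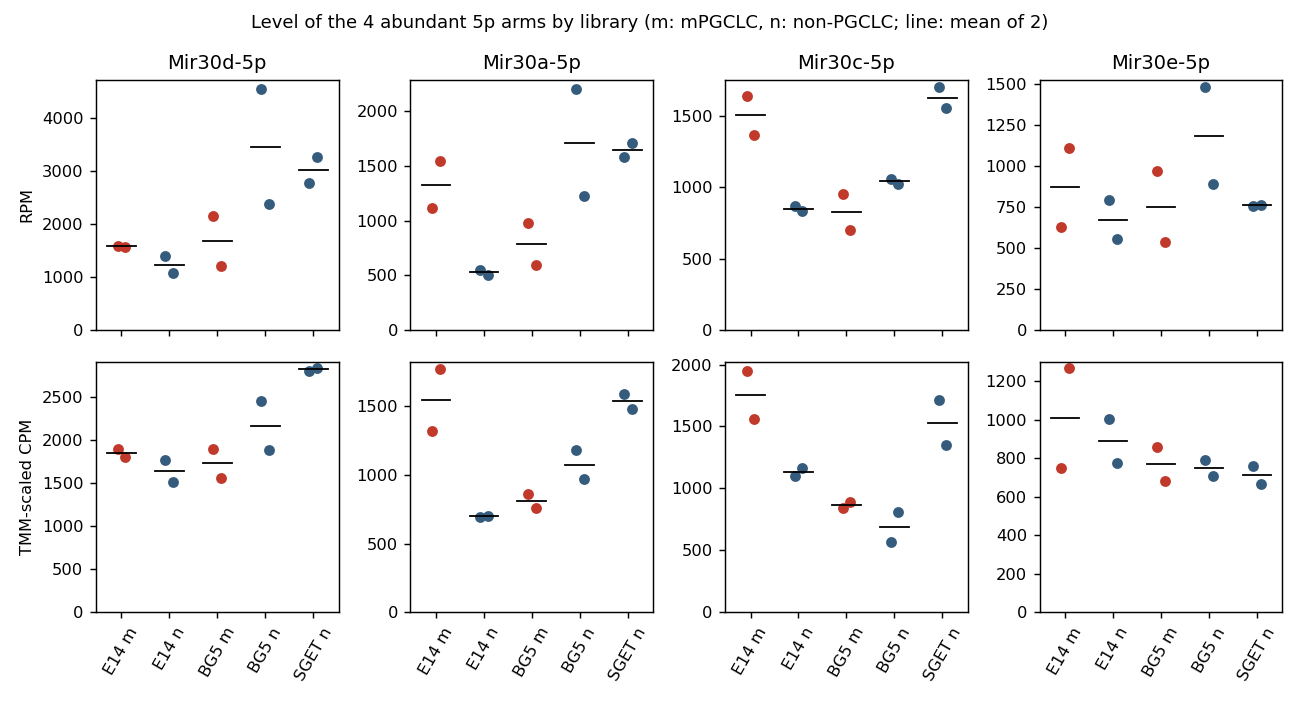
Levels of the 4 abundant 5p arms in each library (points) with the mean of the 2 replicates (line), in RPM (top row) and TMM-scaled CPM (bottom row), by group. Mir30a-5p was higher in E14 mPGCLCs (1113 and 1548 RPM) than in E14 non-PGCLC cells (552 and 501 RPM) on both scales and lower in BG5 mPGCLCs than in BG5 non-PGCLC cells.

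Mir30b-5p, whose hairpin lies next to Mir30d, was far below its neighbour. It had 65.4 and 47.4 RPM in E14 mPGCLCs, 68.5 and 59.8 RPM in E14 non-PGCLC cells, 5.33 and 26.6 RPM in BG5 mPGCLCs, 225 and 33.6 RPM in BG5 non-PGCLC cells, and 28.1 and 27.7 RPM in SGET non-PGCLC cells. Its reads were made up of 1 to 9 distinct sequences per library, while the 4 abundant 5p arms had 19 to 95. The log2 changes were -0.37 (SE 1.32) in E14 and -1.93 (SE 1.36) in BG5 (edgeR adjusted p = 0.450), and neither passed. Leaving out 1 library moved the BG5 value to between -3.98 (without BG5 mPGCLC replicate 2) and -0.19 (without BG5 non-PGCLC replicate 1).

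The 3p arms made up 70.4 to 284 RPM in all. Mir30e-3p had 64.2 and 62.6 RPM in E14 mPGCLCs, 36.7 and 13.7 RPM in E14 non-PGCLC cells, 18.2 and 31.97 RPM in BG5 mPGCLCs, 145 and 84.7 RPM in BG5 non-PGCLC cells, and 88.2 and 105 RPM in SGET non-PGCLC cells. It was higher in E14 mPGCLCs and lower in BG5 mPGCLCs than in the non-PGCLC cells of the same line, without overlap on the 3 scales. In the E14 mPGCLC replicates 27.1% and 27.0% of these reads came from the hairpin's loop (described with the arm ratios). Without loop reads it had 46.8 and 45.7 RPM in E14 mPGCLCs, and as shares of miRNA reads the E14 groups then overlapped (0.0136% and 0.0145% against 0.0160% and 0.00771%). The BG5 groups still did not overlap on any of the 3 scales. Its log2 changes of 1.17 (SE 1.17) and -1.35 (SE 1.17) did not pass (edgeR adjusted p = 0.736 and 0.570).

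Mir30a-3p had 53.5 and 68.6 RPM in E14 mPGCLCs, 48.9 and 47.1 RPM in E14 non-PGCLC cells, 54.8 and 29.1 RPM in BG5 mPGCLCs, 51.6 and 15.2 RPM in BG5 non-PGCLC cells, and 117 and 140 RPM in SGET non-PGCLC cells. Only the SGET replicates lay above all others. Mir30c-2-3p had 28.8 and 49.3 RPM in E14 mPGCLCs, 26.3 and 9.23 RPM in E14 non-PGCLC cells, 4.61 and 5.96 RPM in BG5 mPGCLCs, 18.9 and 18.8 RPM in BG5 non-PGCLC cells, and 75.8 and 0 RPM in SGET non-PGCLC cells. The SGET replicates thus held the highest and the lowest value of this arm.

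Mir30b-3p was at 0 in 6 libraries and at most 12.6 RPM, and Mir30c-1-3p was at 0 in 8 libraries and at most 18.4 RPM. A count of 0 allows up to 3 reads, or 0.208 to 0.404 RPM by library, counting error alone. Mir30d-3p had 30 reads in all 10 libraries together, 28 of them copies of 1 sequence in E14 mPGCLC replicate 2. The 3p arms had 11 or fewer distinct sequences in any library. Mir30c-1-3p and Mir30d-3p did not pass the filter on low counts, and the fit covered the other 9 arms.

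In RPM, 6 of these 9 arms were higher in both E14 mPGCLC replicates than in both E14 non-PGCLC replicates, where 24.8% of all arms were, and 0 were lower, where 14.4% were. In BG5, 6 were lower, where 35.3% of all arms were, and 0 were higher, where 17.3% were. On the TMM scale 5 were higher in E14, where 21.9% of all arms were, and 1 was lower, where 16.2% were. In BG5, 2 were higher on that scale, where 25.3% of all arms were, and 3 were lower, where 26.6% were. As shares of miRNA reads, 2 were higher (13% of all arms), 1 of them Mir30e-3p with its loop reads, and 2 lower (26.6%) in E14. In BG5, 1 was higher (23.7% of all arms) and 4 were lower (29.6%) as shares of miRNA reads. The single direction seen in RPM within each line was thus not seen on the other 2 scales.

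In the edgeR fits 1 of 9 arms, Mir30a-5p, passed within E14, against 2.85% of all arms, and 0 within BG5, against 13.9%. Averaged over the lines 0 of 9 arms passed, against 14.8% of all arms, and 1 of 9 (Mir30c-5p) had an unadjusted p under 0.05, against 23.4%. Within E14, 2 of 9 (Mir30a-5p and Mir30c-5p) had an unadjusted p under 0.05, against 11.6% of all arms, within BG5 0, against 20.7%, and for the difference between the lines 1 (Mir30a-5p), against 14.8%. Of the arms to which DESeq2 gave an adjusted p, it called 0 of the 9 over both lines, against 25.5% of all arms, and 0 of 9 within BG5, against 25.2%. It called 1 of 9 within E14 (Mir30a-5p), against 11% of all arms, and 1 of 9 for the difference between the lines (Mir30a-5p), against 14.6%. Across the non-PGCLC cells it called 4 of 8 (Mir30a-5p, Mir30a-3p, Mir30c-5p and Mir30d-5p), against 33.6%, and Mir30b-3p had no adjusted p there. The median log2 change of the 9 arms was 0.19 in E14 and -0.33 in BG5, beside medians of 0 and -0.04 over all arms. For Mir30b-3p the fitted values rest on libraries at 0.

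**Figure D3:**
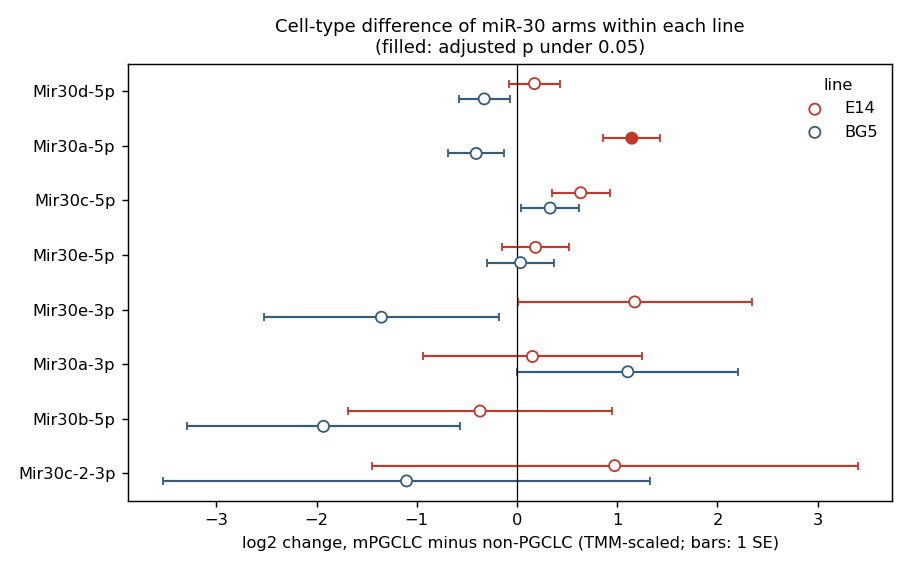
Log2 change of mPGCLC minus non-PGCLC cells (horizontal axis, TMM-scaled) for 8 miR-30 arms within E14 (red) and BG5 (blue), with bars of 1 SE and filled points where the adjusted p was under 0.05. The filled point is Mir30a-5p in E14 at 1.15, and its value in BG5 was -0.41. Mir30b-3p, at 0 in 6 libraries, is not drawn.

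Across the non-PGCLC cells of the 3 lines, Mir30a-5p and Mir30c-5p differed, 2 of 9 arms where 19.1% of all arms did. Relative to E14, Mir30a-5p was 0.62 higher in BG5 and 1.14 higher in SGET on the log2 scale (edgeR test of all 3 lines, adjusted p = 0.0230). Mir30c-5p was 0.71 lower in BG5, a log2 difference of -0.71, and 0.44 higher in SGET (edgeR adjusted p = 0.0251). On the TMM scale the BG5 value thus lay above E14 for Mir30a-5p and below it for Mir30c-5p, and single pairs of lines were not tested. In RPM, Mir30a-5p in BG5 overlapped with SGET, Mir30c-5p was higher in BG5 than in E14, and with total-read scaling its call was lost (adjusted p = 0.172). It was also lost with the compared groups alone (0.0663), with reads of 18 to 30 nt (0.0601), and without BG5 or SGET non-PGCLC replicate 1 (0.0504 and 0.126). The call of Mir30a-5p was lost without either BG5 mPGCLC replicate, either E14 non-PGCLC replicate or SGET non-PGCLC replicate 1 (0.0542 to 0.154). Mir30d-5p did not pass (edgeR adjusted p = 0.105), with log2 differences from E14 of 0.40 in BG5 and 0.78 in SGET, and passed with total-read scaling (0.0146), with DESeq2 (0.00338) and without BG5 non-PGCLC replicate 1 (0.0122).

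The make-up of the family shifted accordingly. Mir30a-5p made up 15.3% ± 1.1 of family reads in E14 non-PGCLC cells and 23.9% ± 3.5 in E14 mPGCLCs (SD, n = 2), with 19.0% ± 0.1 in BG5 mPGCLCs, 22.1% ± 0.7 in BG5 non-PGCLC and 22.4% ± 0.3 in SGET non-PGCLC cells. Mir30c-5p made up 27.5% ± 5.8 in E14 mPGCLCs and 14.5% ± 5.1 in BG5 non-PGCLC cells, its highest and lowest groups. Mir30d-5p ranged from 28.8% ± 2.7 in E14 mPGCLCs to 44.4% ± 3.4 in BG5 non-PGCLC cells. Across the 10 libraries, Pearson's r of TMM-scaled log2 levels was 0.68 between Mir30a-5p and Mir30d-5p and 0.50 between Mir30a-5p and Mir30c-5p. For Mir30c-5p and Mir30e-5p, whose hairpins Mir30c-1 and Mir30e share the gene Nfyc, it was 0.17, and for the neighbours Mir30b-5p and Mir30d-5p it was -0.14. These points share groups and lines and are given as a description.

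The arm ratio, 5p reads per 3p read within a library, needs no scaling between libraries. For Mir30a it was 20.8 and 22.6 in E14 mPGCLCs, 11.3 and 10.6 in E14 non-PGCLC cells, 17.9 and 20.4 in BG5 mPGCLCs, 42.7 and 80.8 in BG5 non-PGCLC cells, and 13.5 and 12.3 in SGET non-PGCLC cells. The replicates of each group lay close together except in BG5 non-PGCLC cells, the highest group, and the mPGCLCs of both lines lay between the non-PGCLC cells of E14 and those of BG5. The 80.8 of BG5 non-PGCLC replicate 2 rests on 219 3p reads, all copies of 1 sequence. That sequence began off the arm's main start and ended in an added U. For Mir30e it was 9.81 and 17.7 in E14 mPGCLCs, 21.6 and 40.3 in E14 non-PGCLC cells, 53.4 and 16.7 in BG5 mPGCLCs, 10.2 and 10.5 in BG5 non-PGCLC cells, and 8.57 and 7.31 in SGET non-PGCLC cells. The highest Mir30e value lay in BG5 mPGCLC replicate 1, but replicate 2 lay below both E14 non-PGCLC values. These groups thus overlapped, and no single group was highest for Mir30e.

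For both Mir30c hairpins together the ratio was 57.1 and 20.2 in E14 mPGCLCs, 33.0 and 90.4 in E14 non-PGCLC cells, 207 and 117 in BG5 mPGCLCs, 55.7 and 54.4 in BG5 non-PGCLC cells, and 22.5 in SGET non-PGCLC replicate 1, while SGET replicate 2 had 15185 5p reads and 0 3p reads. For Mir30b it ranged from 4.74 to 9.64 in the 4 libraries with 3p reads. Mir30d-5p had 10361 to 43089 reads in the 8 libraries in which its 3p arm had 0. A 5p arm above the 3p arm was seen in 47.7% of the 197 other hairpins compared, and in all 4 units of the family that were compared (both Mir30c hairpins as 1 unit, Mir30d left out for too few 3p reads).

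The limma fit of the log2 ratio (with 0.5 read added to each arm) over both lines called 0 of 201 hairpin units, with 15 at an unadjusted p under 0.05. The difference, mPGCLC minus non-PGCLC, was -0.32 (SE 0.71) for Mir30a and 0.18 (SE 0.77) for Mir30e, both with a limma adjusted p of 0.982. It was 0.40 (SE 2.12) for the Mir30c hairpins and -2.97 (SE 2.68) for Mir30b, where some 3p arms were at 0. Mir30d had too few 3p reads to be fitted. The average over both lines joins opposite directions: the Mir30a ratio was higher in E14 mPGCLCs and lower in BG5 mPGCLCs than in the non-PGCLC cells. The Mir30e ratio, with the loop reads described below, went the other way in each line. Ratios within a single line were not tested.

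**Figure D4:**
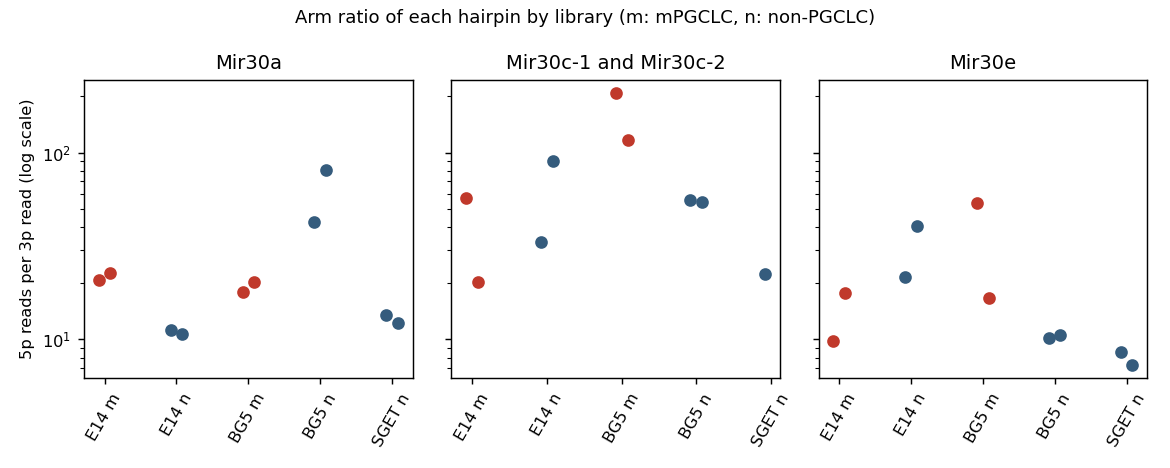
Number of 5p reads per 3p read (vertical axis, log scale) in each library, for Mir30a, for both Mir30c hairpins together and for Mir30e. Mir30a was highest in BG5 non-PGCLC cells (42.7 and 80.8), where the 80.8 rests on 3p reads of 1 sequence. SGET non-PGCLC replicate 2 has no point for Mir30c because its 3p arms had 0 reads.

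Some reads counted on the 3p side of Mir30e came from the loop between its arms. They covered bases 41 to 58 of the hairpin, the 18 nt that directly follow the main 5p read:
Mir30e loop: guaagguguugagaggag

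Such reads numbered 1039 in 5 libraries, 15.2% of those counted as Mir30e-3p. There were 144 and 136 in the E14 mPGCLC replicates, 34 in BG5 mPGCLC replicate 2, 446 in BG5 non-PGCLC replicate 2 and 279 in SGET non-PGCLC replicate 1. The E14 and BG5 mPGCLC reads had no added base, 445 of the 446 BG5 non-PGCLC reads ended in 1 added U, and 249 of the 279 SGET reads in 2 or 3. Each library held at most 4 distinct loop sequences. Without them the Mir30e ratios were 13.5 and 24.3 in E14 mPGCLCs, 18.6 in BG5 mPGCLC replicate 2, 16.6 in BG5 non-PGCLC replicate 2 and 10.98 in SGET non-PGCLC replicate 1. The E14 mPGCLC values, both below the E14 non-PGCLC values of 21.6 and 40.3 with the loop reads, then overlapped with them.

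Mir30a-5p, Mir30c-5p and Mir30e-5p were mostly longer than the RefSeq mature sequences printed above. The most frequent read was 24 nt long for each of Mir30a-5p (60.7% of its reads), Mir30c-5p (72.4%), Mir30d-5p (59.8%) and Mir30e-5p (70.6%). Its added 3′ bases, 2 for Mir30a-5p and Mir30e-5p and 1 for Mir30c-5p, matched the hairpin. For Mir30b-5p it was instead 22 nt long (90.2%). The most frequent reads of Mir30a-3p, Mir30e-3p and Mir30c-2-3p were as long as the RefSeq sequence, 22 nt. The median over other arms of the mean read length was 22.0 to 22.2 nt per library, while the mean length of the 4 abundant 5p arms was 23.0 to 24.3 nt.

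At the 5′ ends, which set the seed, most reads of the 4 abundant 5p arms shared 1 start. The main start held 92.4% to 100% of reads of Mir30a-5p, 90.7% to 97.8% of Mir30c-5p, 94.1% to 99.7% of Mir30d-5p and 88.9% to 100% of Mir30e-5p. The medians over the libraries were 96.1%, 96.5%, 98.0% and 93.5% in that order, below the 99.0% found for the typical other arm (the median over libraries of each library's median, which ranged from 96.5% to 100%). The 3p arms had fewer reads and varied more. Their main start held 0% to 100% of Mir30a-3p (median 66.8%), 41.5% to 100% of Mir30e-3p with its loop reads, and 50.4% to 100% of Mir30c-2-3p. Bases that did not match the hairpin ended 0.233% to 12.8% of Mir30a-5p reads, 1.16% to 14.6% of Mir30d-5p, 0.617% to 7.76% of Mir30e-5p and 4.75% to 22.6% of Mir30c-5p. For Mir30c-5p the highest share was in BG5 non-PGCLC replicate 2, where 13.98% of reads ended in an added U. In SGET non-PGCLC replicate 2, in which Mir30a-5p had its lowest share, the median over other arms was also the lowest, 0.651% against up to 11.9% elsewhere. Mir30c-5p was also at its lowest there, 4.75%, but Mir30d-5p had 12.1% and Mir30e-5p 6.81%.

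**Figure D5:**
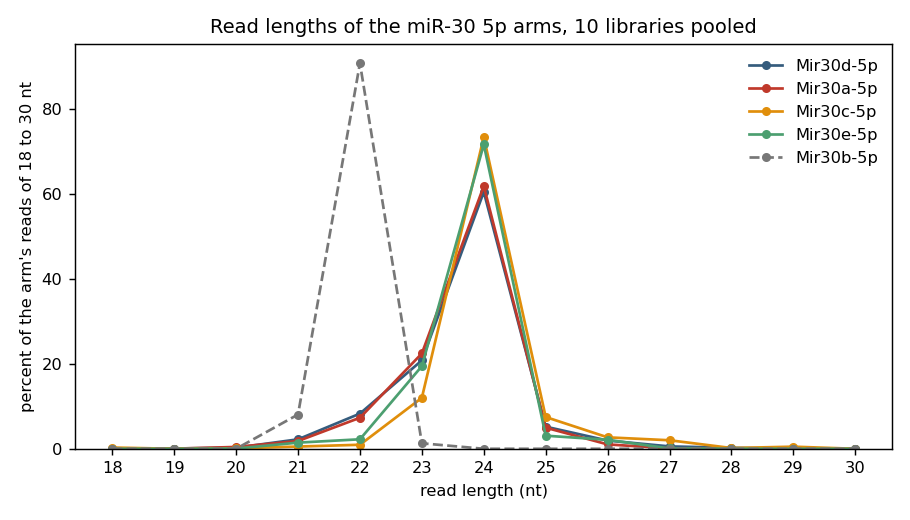
Percent of the reads of each miR-30 5p arm (vertical axis) by read length in nt, with the 10 libraries pooled. The 4 abundant arms peak at 24 nt and Mir30b-5p at 22 nt.

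The 5 arms outside the family whose log2 TMM-scaled level over the 10 libraries was most like the family sum were Mir141-3p (Pearson's r = 0.86), the shared 5p arm of Mir26a-1 and Mir26a-2 (0.83), Mir423-5p (0.81), Mir671-3p (0.79) and Mir1247-5p (0.78). They were the highest of 552 arms compared and are given as a description, since the libraries share groups and lines. Mir141-3p, an arm of the epithelial miR-200 family, had 1 and 0 reads in the BG5 mPGCLC replicates. It had 2 reads in E14 non-PGCLC replicate 2 and 0 in BG5 non-PGCLC replicate 2. Mir671-3p had 0 or 1 reads in 6 libraries and at most 99, and Mir1247-5p had 0 or 1 in 4. The values of r of Mir141-3p, Mir671-3p and Mir1247-5p thus rest in part on counts near 0.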

How the data were processed

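The authors' deposited values are raw read counts of each distinct sequence, 1 file per library. As the labels and the methods of the study state, small RNA libraries (NextFlex v3) were trimmed with cutadapt 3.2, 4 random bases were removed from each end, and reads were mapped to GRCm38 with STAR 2.5.3a. PCR copies were not removed: the random bases did not serve as molecular identifiers. Libraries were run on 2 instrument types and their files joined, so instrument could not be entered in a fit. Groups and replicate numbers came from the labels. Nothing says that replicates were separate cultures, so p-values measure the spread between samples, which may be technical.

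Reads of 18 to 26 nt were matched in sense to 1174 GENCODE vM21 hairpins, requiring an exact match of the first 18 nt and allowing 2 mismatches after it, and assigned to an arm by the side of the hairpin they lay on. Arms sharing at least 50% of the smaller arm's reads were merged, and other ambiguous reads (0.246% to 0.666% of miRNA reads) left out. Counts per arm were compared in edgeR 4.0.16 (R 4.3.3; quasi-likelihood fit) over 10 samples and 5 group means, after filterByExpr and TMM with total reads as library size, with Benjamini-Hochberg adjustment and a threshold of 0.05. SEs were derived from the log2 change and its F statistic. Arm ratios were tested with limma 3.58.1, for hairpins with a mean of at least 10 reads in the weaker arm. Alternatives were DESeq2 1.42.0, other scalings, filters, samples, length windows and denominators, exact matches, a replicate block and each replicate left out. Both codes were tested on simulated data.

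The members and the marker lists were chosen with earlier results of these data known. Every miR-30 arm was named; arms with a mean of at least 10 RPM are given in every library. Chosen after seeing the data were the window of 18 to 30 nt, the loop reads and their removal. Mature sequences are from RefSeq (GRCm38.p6), which matched 4 of the 6 hairpins; the loop was read from the GENCODE transcript.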

Additional observations from a re-analysis of the deposited data

Results flagged for a closer look

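The difference of the cell-type effects of Mir30a-5p between the lines stood out: the log2 change of mPGCLC against non-PGCLC cells in BG5 minus that in E14 was -1.55 (SE 0.40, edgeR adjusted p = 0.0226). Both E14 mPGCLC replicates lay above both E14 non-PGCLC replicates, and both BG5 mPGCLC replicates lay below both BG5 non-PGCLC replicates, in RPM. Without BG5 non-PGCLC replicate 1 the TMM-scaled change of Mir30a-5p in BG5 turned from -0.41 to 0.022, and the difference was -1.10 (edgeR adjusted p = 0.211). In BG5 non-PGCLC cells, the list of 4 mesenchyme hairpins was at 13165 and 22031 RPM, against 1060 and 1242 RPM in E14 non-PGCLC cells, and its part in the difference was not tested. Groups of 2 replicates are too small for a check of single samples that stand apart.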

How the results depend on the processing

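With DESeq2 the calls over all arms numbered 143 in place of 83 over both lines, 57 in place of 16 within E14, 122 in place of 78 within BG5 and 77 in place of 32 for the difference between the lines. The calls within E14 numbered 9 with total-read scaling, 30 without a low-count filter and 6 from the compared groups alone, which also gave 5 ratio calls in place of 0. Each replicate left out in turn gave 77 to 112, 14 to 35, 71 to 102, 33 to 58 and 117 to 158 calls over both lines, within E14, within BG5, between the lines and across non-PGCLC cells, and 0 to 5 ratio calls, with more arms passing the filter. Of the calls, 43 of 83, 3 of 16, 46 of 78 and 22 of 32 were higher in the first 4 comparisons, against 30 of 75, 0 of 9, 28 of 69 and 15 of 34 with total-read scaling, and 1 of 16 within E14 with DESeq2 size factors. The log2 ratio of the family sum in E14 was -0.011 with miRNA reads as denominator; leaving out a replicate gave 0.54 to 0.83 in E14 and -1.29 to -0.45 in BG5.

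A replicate block gave 83, 15, 78, 33 and 131 calls in the same order and 0 ratio calls, and changed no call of a miR-30 arm. Same-numbered samples deviated with a correlation of -0.05 in E14 and -0.003 in BG5. Whether same-numbered pools came from the same embryoid bodies was not stated. These correlations cannot decide it, since they describe the spread over arms and not the origin of the cells.

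Some log2 values that had not passed changed direction. Over both lines, Mir30e-5p went to -0.040 with DESeq2 or its size factors, -0.14 with total-read scaling and -0.020 with exact matches. Mir30c-2-3p, Mir30d-5p and Mir30e-3p went to 0.052, 0.028 and 0.023 from the compared groups alone, and with exact matches Mir30e-3p went to 0.33 and Mir30b-3p to -1.10. With exact matches Mir30a-3p went to -0.14 and Mir30d-5p to -0.012 within E14, and the Mir30e ratio to -0.43. Within BG5, Mir30e-5p went to -0.16 with DESeq2 or its size factors, -0.66 with total-read scaling and -0.065 with exact matches, and Mir30c-5p (Mir30c-1/Mir30c-2-5p) to -0.33 with total-read scaling. The Mir30a-3p difference between lines went to -0.018 with total-read scaling, and its line difference passed with DESeq2 (0.0218).

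Leaving out replicates changed the direction over these ranges: over both lines, -1.02 to 7.97 for Mir30b-3p, -0.33 to 0.36 for Mir30c-2-3p, -0.16 to 0.15 for Mir30d-5p, -0.50 to 0.31 for Mir30e-3p and -0.085 to 0.28 for Mir30e-5p. Within E14 they were -9.63 to 8.37 for Mir30b-3p and -0.21 to 0.49 for Mir30e-5p. Within BG5 they were -0.54 to 0.022 for Mir30a-5p, -0.50 to 0.15 for Mir30d-5p and -0.12 to 0.40 for Mir30e-5p. Mir30b-3p within BG5 ran from 0 (without BG5 mPGCLC replicate 2) to 8.56 and did not go below 0. Between the lines they were -0.80 to 17.2 for Mir30b-3p, -3.62 to 0.20 for Mir30b-5p, -0.68 to 0.0045 for Mir30d-5p and -0.45 to 0.25 for Mir30e-5p, and for the Mir30e ratio -0.24 to 0.60. Where a group was left with 1 library, its spread was taken to be that of the other groups. Reads are not independent molecules, so low arms limit precision most; the cause of these changes was not tested.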
